A study of Homo sapiens with 6 samples.

Results

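The nuclear genes for the subunits of the respiratory chain and of ATP synthase were followed in 786-O cells after transfection with siTEAD4. Members were every symbol beginning NDUFA, NDUFB, NDUFC, NDUFS or NDUFV followed by digits only, the symbols SDHA to SDHD, and all symbols beginning UQCR, COX4 to COX8 or ATP5. This gave 85 of the 18126 symbols measured. By complex, 36 belonged to complex I, 4 to complex II, 8 to complex III, 15 to complex IV and 17 to complex V, with NDUFA4 counted in complex IV. The other 5 (COX7A2L, ATP5IF1, ATP5MF-PTCD1, ATP5MGL and UQCRHL) match by name and are not established subunits. The members lie on 22 chromosomes, 12 of them on chromosome 19. The 13 subunit genes of mitochondrial DNA were not analysed here, nor were COX4I2 and COX6A2.

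786-O is an established human cell line from a clear cell renal carcinoma. By the labels, 3 libraries came from cells given a control transfection (Control) and 3 from cells transfected with siTEAD4, named for TEAD4, a transcription factor that recruits YAP to DNA. No source used here gives the control agent, the siRNA sequence or the time of harvest. In the deposited tables, "Tead_Inhibitor" heads the values of the siTEAD4 libraries and "Vehicle" those of Control 2 and Control 3, so the agent is uncertain. Groups below follow the sample labels. The labels do not state whether replicate libraries were grown as separate cultures. The p-values therefore reflect only how much these libraries vary, which may be technical.

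The respiratory chain sits in the inner mitochondrial membrane. Complexes I and II pass electrons from NADH and succinate to ubiquinone, complex III passes them on to cytochrome c, and complex IV passes them to oxygen. Complexes I, III and IV pump protons, and complex V, the ATP synthase, uses the proton gradient to make ATP. Clear cell renal carcinoma commonly loses the VHL protein, and the hypoxia-inducible factors that then accumulate turn tumour metabolism away from respiration. Many nuclear subunit genes have binding sites for the factors NRF1, GABP and YY1 close to their start.

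Levels are in FPKM (fragments relative to transcript length and to each library's mapped fragments). FPKM keeps no read counts, so the depth of the libraries is unknown and no counting interval can be given. TEAD4 itself stood at 12.5, 17.0 and 11.3 FPKM in Control 1 to 3 and at 8.92, 7.65 and 7.52 FPKM in siTEAD4 1 to 3, and the groups did not overlap. Its mean was 59.1% of the Control mean (log2 fold change -0.68 ± 0.143 SE, adjusted p = 0.00521, limma over 11411 genes). All 7 genes checked as markers of a renal carcinoma line were present, from 3.9 FPKM for PAX2 to 3648 FPKM for VIM. CDH6 had 133 to 180 FPKM in Control and 28.6 to 30.7 FPKM in siTEAD4. PAX2 had 6.18 to 9.28 FPKM in Control and 3.9 to 4.33 FPKM in siTEAD4. EPAS1 and KRT18 were higher in every siTEAD4 library than in any Control library, and for PAX8, KRT8 and VIM the groups overlapped. The 9 markers of leukocytes, endothelium and fibroblasts had at most 1.27 FPKM in any library, summed to 2.35 to 3.00 FPKM in Control and 1.42 to 1.67 FPKM in siTEAD4, and DCN was at 0 in all 6. The median FPKM of the tested genes was 11.4 to 11.9 in Control and 12.3 to 12.4 in siTEAD4.

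Few respiratory chain subunit genes passed the test between siTEAD4 and Control libraries. Of the 78 members tested, those with at least 1 FPKM in at least 3 libraries, 7 rose and 0 fell at an adjusted p under 0.05. The 7 are 8.97% of the tested members, while over all 11411 genes 26.1% were called higher and 18.8% lower. By unadjusted p under 0.05, limma gave 13 members higher and 0 lower. The 7 were COX7A2L, NDUFV3, NDUFA1, NDUFA8, UQCRH, ATP5MK and ATP5MJ. The member log2 fold changes (siTEAD4 minus Control, on the log2(FPKM + 1) scale) ran from -0.22 for ATP5IF1 to 0.59 for COX7A2L, and 76 of 78 (97.4%) were under 0.5 in size, against 78.6% of all tested genes. For the 71 tested members not called, the 95% intervals lay between -0.50 and 0.63, and a miss of the threshold does not show equal levels within that range. In RNA from whole cultures, fewer cells of a type and less RNA per cell cannot be told apart.

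As deposited, the small differences leaned upward, as did those of all genes. Of the 78 members, 66 (84.6%) had a positive log2 fold change, beside 60% of all tested genes. The median was 0.11 for the members and 0.09 for all genes. This lean depended on single Control libraries and on scaling. Without Control 1, 43 members (55.1%) were positive with a median of 0.006, beside 57.8% and 0.079 for all genes. Without Control 2, 74 members (94.9%) were positive with a median of 0.206, beside 59.7% and 0.089. With each library's trends in transcript length and GC content removed, 43 members were positive with a median of 0.007, beside 56.9% and 0.062. That fit also sets each library to the same mean log2 level over the tested genes. With all libraries scaled to one median FPKM, the medians were 0.03 and 0.02, 50 members (64.1%) were positive, and 2 members, COX7A2L and NDUFV3, were still called higher. On that scale 0 were called lower (0 at unadjusted p under 0.05), and 19% of all genes were called higher and 21.5% lower. A TMM-like scaling, a trimmed mean of log ratios, also called 2 members higher and 0 lower (3 lower at unadjusted p under 0.05), against 18.7% and 22.1% of all genes. Groups of 3 libraries did not overlap for 17 members with siTEAD4 above (21.8%, against 35.1% of all genes) and for 1 with siTEAD4 below (1.28%, against 22.6%). After rescaling there were 5 above (6.41%, against 27.5%) and 3 below (3.85%, against 26.9%), the 3 being NDUFA10, ATP5F1A and ATP5F1C.

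**Figure D1:**
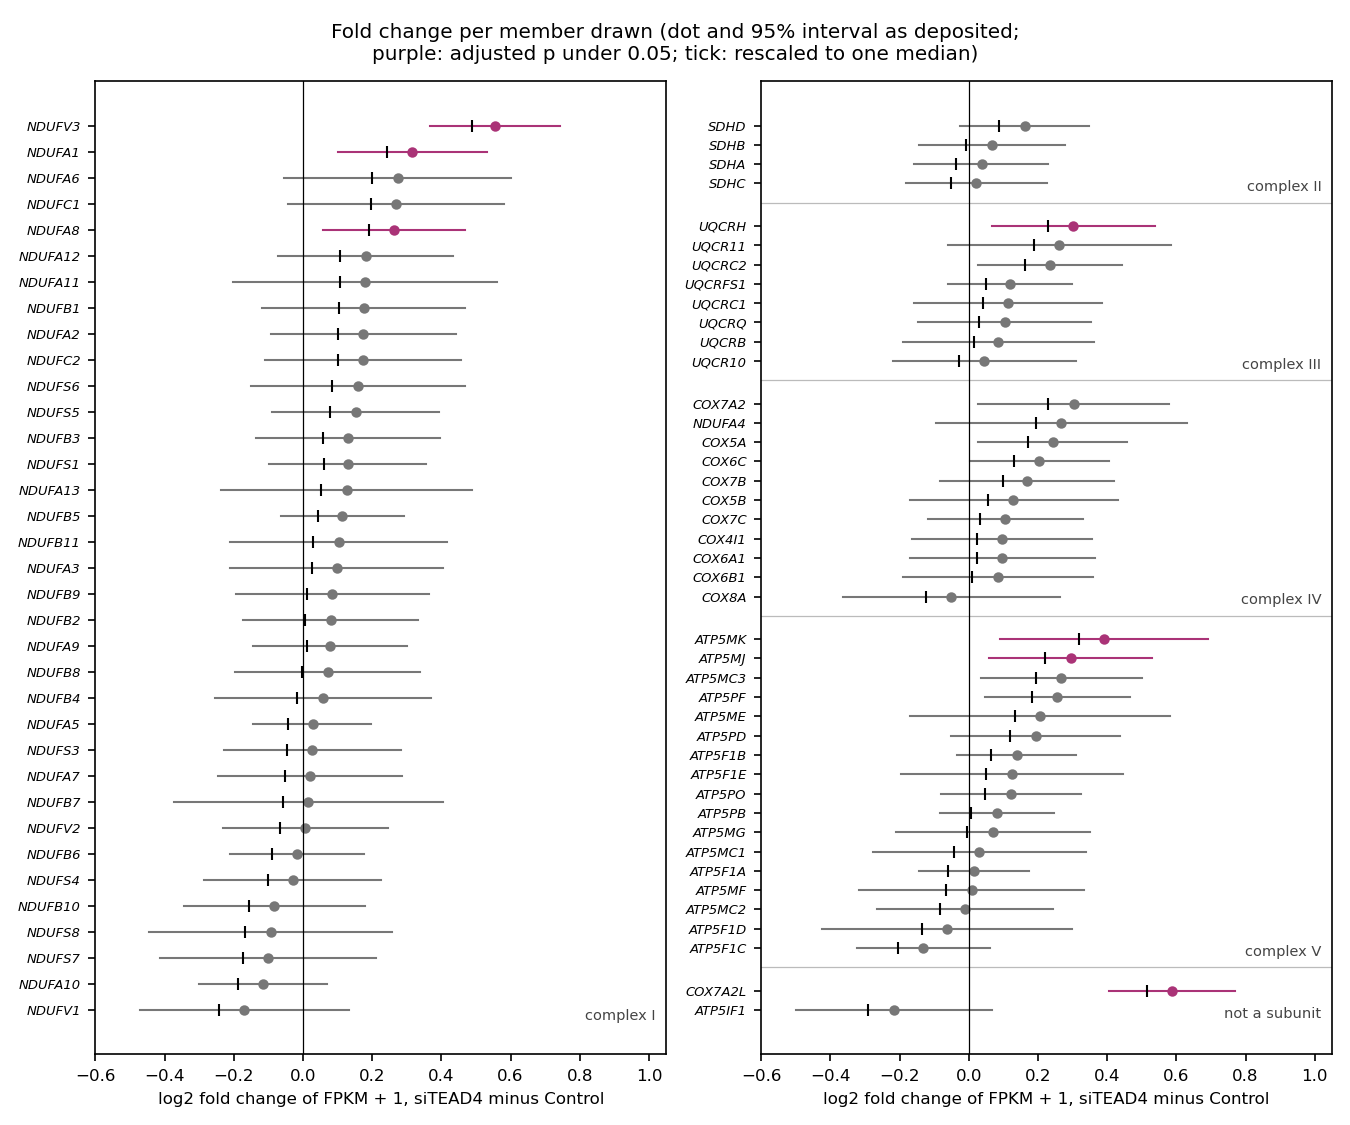
Log2 fold change of FPKM + 1 (siTEAD4 minus Control, x axis) for 77 of the 78 tested members, grouped by complex; dots and bars are the limma estimate and its 95% interval from 3 and 3 libraries as deposited, purple marks the 7 called members, and ticks are the estimates after rescaling to one median. COX7A2L at 0.59 and NDUFV3 at 0.56 lie apart from the other members, and the ticks lie to the left of the dots.

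COX7A2L, also called SCAF1, had the highest log2 fold change as deposited. NDUFV3 was above it as a percent of Control, with a pseudocount of 0.1, with length and GC trends removed, and without Control 2, with or without rescaling. COX7A2L encodes a relative of the complex IV subunit COX7A2 that joins complex III to complex IV in supercomplexes. The gene lies on chromosome 2 from 42333546 to 42425088 on the minus strand (GRCh38, GENCODE 29). Its level was 60.4, 63.8 and 70.0 FPKM in Control 1 to 3 and 96.2, 98.2 and 98.5 FPKM in siTEAD4 1 to 3. All 3 siTEAD4 libraries lay above all 3 Control libraries, and the gap exceeded the range within either group. The mean went from 64.7 ± 4.87 to 97.6 ± 1.26 FPKM (SD, n = 3), 151% of Control, with a log2 fold change of 0.59 ± 0.0798 (SE, limma adjusted p = 0.000544). It was called in all 16 alternatives, with log2 fold changes of 0.48 to 0.65 and adjusted p of 0.000106 to 0.00542.

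NDUFV3 was the other member called in all 16 alternatives. It encodes an accessory subunit of the NADH-oxidising arm of complex I and lies on chromosome 21 from 42879644 to 42913304 on the plus strand. With a mean of 8.81 FPKM over all libraries it was the lowest complex I member. Its level was 6.72, 7.39 and 6.72 FPKM in Control 1 to 3 and 10.6, 11.01 and 10.4 FPKM in siTEAD4 1 to 3. The 2 groups were separate, and the Control libraries lay within 1 FPKM of each other. The mean was 6.94 ± 0.387 FPKM with Control and 10.7 ± 0.319 FPKM with siTEAD4 (SD, n = 3), 154% of Control, with a log2 fold change of 0.56 ± 0.0832 (SE, limma adjusted p = 0.0009). Over the alternatives its log2 fold change was 0.39 to 0.61 and its adjusted p 6.1e-05 to 0.00906.

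**Figure D2:**
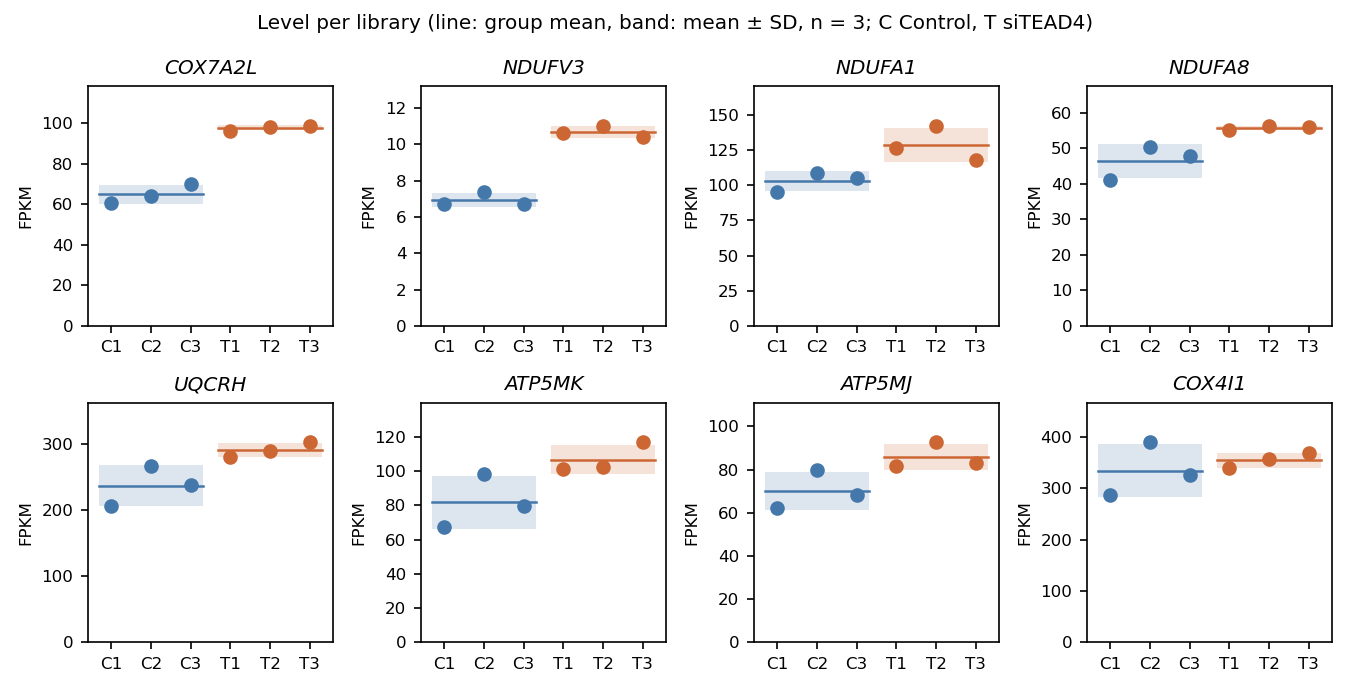
FPKM (y axis, from 0) in each library for the 7 called members and for COX4I1, the most abundant complex IV subunit gene; points are libraries (C1 to C3 Control, T1 to T3 siTEAD4), lines are group means and bands are mean ± SD, n = 3. The groups are separate for the 7 called members, while the COX4I1 value of Control 2, 389 FPKM, is above all 3 siTEAD4 values.

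The promoters of both genes, the members called in every alternative, are shown beside those of 3 others. These 3 are shown because they hold matches to letters searched for regulators of respiratory genes. Whether the matches are working sites was not tested. The windows are RefSeq promoters on GRCh38.p14, 250 bases before to 50 bases after the annotated start, written along the gene's strand, 5′ to 3′. Capitals mark matches to the letters searched, GCGCA, any base and GCGC for NRF1, CCGGAAG for GABP and other ETS factors, AAGATGGC for YY1, GGAATG for TEAD factors and TGACNNNGC for the antioxidant response element, on both strands. The windows are chr2:42361168-42361467 (minus) for COX7A2L, chr21:42893059-42893358 (plus) for NDUFV3, chr9:122159730-122160029 (minus) for NDUFA8, chr10:103396426-103396725 (minus) for ATP5MK and chr1:17053983-17054282 (minus) for SDHB.
COX7A2L: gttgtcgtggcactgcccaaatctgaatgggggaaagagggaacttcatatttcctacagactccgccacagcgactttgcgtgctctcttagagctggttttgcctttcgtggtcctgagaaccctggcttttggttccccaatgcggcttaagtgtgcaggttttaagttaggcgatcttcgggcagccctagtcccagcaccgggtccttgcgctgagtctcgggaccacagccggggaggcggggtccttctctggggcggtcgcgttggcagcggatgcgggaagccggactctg
NDUFV3: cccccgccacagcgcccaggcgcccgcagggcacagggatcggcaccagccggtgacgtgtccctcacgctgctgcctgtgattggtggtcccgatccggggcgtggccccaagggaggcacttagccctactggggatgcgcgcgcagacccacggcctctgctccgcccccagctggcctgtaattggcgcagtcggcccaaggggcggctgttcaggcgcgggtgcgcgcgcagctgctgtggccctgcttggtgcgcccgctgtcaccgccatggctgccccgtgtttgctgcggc
NDUFA8: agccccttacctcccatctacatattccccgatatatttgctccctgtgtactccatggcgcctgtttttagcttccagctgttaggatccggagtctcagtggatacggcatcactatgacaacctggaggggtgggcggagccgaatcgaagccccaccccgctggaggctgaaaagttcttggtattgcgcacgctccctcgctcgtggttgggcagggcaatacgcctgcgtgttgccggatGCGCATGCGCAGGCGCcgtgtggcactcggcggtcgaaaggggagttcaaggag
ATP5MK: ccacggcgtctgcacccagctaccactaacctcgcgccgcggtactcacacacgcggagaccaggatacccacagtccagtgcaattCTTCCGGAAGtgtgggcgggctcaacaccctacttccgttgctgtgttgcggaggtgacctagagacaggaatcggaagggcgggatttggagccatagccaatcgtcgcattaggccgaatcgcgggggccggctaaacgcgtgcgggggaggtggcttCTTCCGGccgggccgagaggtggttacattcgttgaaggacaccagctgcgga
SDHB: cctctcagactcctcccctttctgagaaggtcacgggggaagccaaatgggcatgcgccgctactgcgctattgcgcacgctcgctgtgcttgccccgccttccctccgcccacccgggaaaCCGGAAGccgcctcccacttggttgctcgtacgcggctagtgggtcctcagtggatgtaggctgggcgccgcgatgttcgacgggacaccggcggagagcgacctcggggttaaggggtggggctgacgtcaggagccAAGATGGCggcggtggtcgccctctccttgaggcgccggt

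The windows of COX7A2L and NDUFV3 hold none of the letters searched. Both windows lie inside the GENCODE gene spans given above and not at their 5′ ends. Other starts of these genes were not searched. The NDUFA8 window holds 2 overlapping matches to the NRF1 letters across its start. The ATP5MK window holds 3 matches to the ETS letters, of which 2 overlap on opposite strands, and the SDHB window holds 1 ETS match and 1 YY1 match. Of the 85 members, 68 had a promoter in the table. The NRF1 letters were in 17 of them (25.0%) and in 12.5% of the 9326 promoters of tested genes. The ETS letters were in 20 (29.4%, against 20.8%) and the YY1 letters in 11 (16.2%, against 5.77%). At least 1 of these 3 motifs was in 39 of 68 member promoters (57.4%), against 34.2%. The TEAD letters were in 6 (8.82%, against 10.7%) and those of the antioxidant response element in 10 (14.7%, against 15.2%). Among the 7 called members, 2 held the NRF1 letters, 3 the ETS letters and 0 the TEAD letters. None of the 79 matches overlapped a match to another motif. A match describes the letters of the window and is not evidence of binding.

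Complex I had 3 called members of 36, all higher. They were 3 of the 29 accessory subunits under the naming rule (10.3%), which surround the catalytic core, and 0 of the 7 core subunits. This difference was not tested. NDUFAB1, an accessory subunit outside the naming rule, had a log2 fold change of 0.28 and was not called (limma adjusted p = 0.0676). Without Control 2 it had 0.35 and was called (limma adjusted p = 0.0101). NDUFA1, a small membrane subunit needed for assembly (chromosome X, 119871487 to 119876662, plus strand), stood at 95.2, 109 and 105 FPKM in Control and at 126, 142 and 118 FPKM in siTEAD4. Its groups did not overlap, with a log2 fold change of 0.32 ± 0.0946 (SE, limma adjusted p = 0.0246). NDUFA8, a subunit on the intermembrane-space face (chromosome 9, 122144058 to 122159819, minus strand), stood at 41.1, 50.5 and 47.9 FPKM in Control and at 55.3, 56.3 and 55.9 FPKM in siTEAD4. The lowest siTEAD4 value lay above the highest Control value, with a log2 fold change of 0.26 ± 0.0900 (SE, limma adjusted p = 0.0405). After rescaling to one median neither was called, with adjusted p of 0.0865 for NDUFA1 and 0.149 for NDUFA8.

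The core subunits of complex I carry the flavin, the iron-sulphur clusters and the quinone site. NDUFV1, which binds NADH and the flavin, was at 71.3, 105 and 81.5 FPKM in Control and at 74.6, 79.9 and 72.0 FPKM in siTEAD4. The siTEAD4 values fell inside the Control range, and the log2 fold change was -0.17 (95% interval -0.47 to 0.13). NDUFV2, its partner in the arm that takes electrons from NADH, had group means of 110 ± 15.98 and 110 ± 0.949 FPKM (SD, n = 3). NDUFS1, the largest iron-sulphur subunit, was lower than the rest of the core at 10.0 ± 1.27 and 11 ± 0.264 FPKM. NDUFS7, at the quinone site, had a log2 fold change of -0.10 (95% interval -0.41 to 0.21), and NDUFS3 and NDUFS8 had 0.03 and -0.09. The median of the 7 core subunits was 0.01, and that of the 29 accessory subunits 0.11, beside 0.09 for all genes. Without Control 1 the medians were -0.086 and 0.005, and with length and GC trends removed -0.002 and 0.002. The summed FPKM of the core was 418 ± 64.0 in Control and 402 ± 6.93 in siTEAD4, 96.1% of Control. It was 104.3% without Control 2 and 91.1% after rescaling, so its direction turned with 1 library. That of the accessory subunits went from 2260 ± 360 to 2436 ± 84.1 FPKM (SD, n = 3).

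The other accessory subunits were not called. NDUFB9 and NDUFS5 had the highest means over all libraries, 216 and 199 FPKM, and NDUFA9, at 10.2 FPKM, was the next lowest after NDUFV3. NDUFA6 and NDUFC1 had log2 fold changes of 0.27 and 0.27 but were not called (limma adjusted p = 0.152 and 0.14). NDUFA10 was the 1 member whose siTEAD4 libraries all lay below its Control libraries. It stood at 29.9, 28.9 and 28.5 FPKM in Control and at 24.6, 27.6 and 28.2 FPKM in siTEAD4, with a log2 fold change of -0.12 (limma adjusted p = 0.272).

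Complex II, which is also an enzyme of the tricarboxylic acid cycle, had no called member among 4. SDHA, the flavoprotein, was at 113, 134 and 128 FPKM in Control and at 131, 129 and 124 FPKM in siTEAD4. SDHB, the iron-sulphur subunit whose promoter is shown above, was at 56.9, 70.3 and 58.9 FPKM in Control and 64.9, 63.9 and 65.3 FPKM in siTEAD4. For both, the siTEAD4 values lay within the Control range. The membrane anchors SDHC and SDHD had log2 fold changes of 0.02 (95% interval -0.18 to 0.23) and 0.16 (-0.02 to 0.35), and for SDHD the groups did not overlap. The 95% intervals of all 4 members included 0.

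Complex III had 1 called member of 8. UQCRH, the hinge protein beside cytochrome c1 (chromosome 1, 46303631 to 46316776, plus strand), was also its most abundant, with 264 FPKM over all libraries. It stood at 206, 267 and 238 FPKM in Control and at 281, 290 and 302 FPKM in siTEAD4. The groups were separate, with a log2 fold change of 0.30 ± 0.104 (SE, limma adjusted p = 0.0415; 0.145 after rescaling to one median). UQCRC1 and UQCRC2, the core proteins, and UQCRFS1, the Rieske iron-sulphur protein, had log2 fold changes of 0.11, 0.24 and 0.12 and were not called (limma adjusted p = 0.461, 0.0633 and 0.24). As deposited, all 8 members had positive log2 fold changes, with a median of 0.12. After rescaling 7 were positive with a median of 0.045, and without Control 1 6 were, with a median of 0.042. The summed FPKM of the complex was 639 ± 81.9 in Control and 732 ± 8.85 in siTEAD4 (SD, n = 3), 115% of Control and 109% after rescaling. CYC1, the cytochrome c1 subunit, lies outside the naming rule and changed by 0.05 on the log2 scale, not called (limma adjusted p = 0.753).

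Complex IV had no called member among the 11 tested. COX4I1, a regulatory subunit and the most abundant member of all at 344 FPKM, stood at 287, 389 and 326 FPKM in Control and at 339, 356 and 368 FPKM in siTEAD4. Control 2 was above and the other Control libraries below all 3 siTEAD4 libraries. COX5A and COX5B, which cap the matrix side, had log2 fold changes of 0.24 and 0.13 (limma adjusted p = 0.065 and 0.45), and COX6A1, the second in abundance at 222 FPKM, had 0.10. NDUFA4, once assigned to complex I, stood at 69.2, 113 and 101 FPKM in Control and at 114, 115 and 106 FPKM in siTEAD4. The ranges overlapped, and the log2 fold change was 0.27 with an interval of -0.10 to 0.63. By the 95% intervals, COX7A2, COX5A and COX6C excluded 0 before adjustment, with adjusted p of 0.0703, 0.065 and 0.0899 (limma).

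Where both forms of a complex IV subunit were analysed here, the widely expressed isoform made up nearly all of the signal. COX4I2 and COX6A2 were not analysed, so no such share can be given for COX4I1 and COX6A1. COX7A2 had 178 ± 30.4 FPKM with Control and 217 ± 6.32 FPKM with siTEAD4 (SD, n = 3), while its muscle form COX7A1 was listed at 0 in all Control libraries and at 0.19, 0.17 and 0 FPKM in siTEAD4. COX6B1 had 162 FPKM over all libraries and the testis form COX6B2 0.315 FPKM. COX7B had 23.2 FPKM and COX7B2 was listed at 0 in all 6 libraries. COX8A had 204 FPKM and COX8C 0.0867 FPKM. NDUFA4L2, a paralog of NDUFA4 that hypoxia-inducible factors are known to activate, lies outside the naming rule. It had 0.21 to 0.33 FPKM in Control and 0.44 to 0.67 FPKM in siTEAD4 and was too low to be tested.

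Complex V had 2 called members of 17, ATP5MK and ATP5MJ, both small proteins of the membrane part. ATP5MK, also called DAPIT (chromosome 10, 103389041 to 103396492, minus strand), stood at 67.5, 98.2 and 79.8 FPKM in Control and at 101, 102 and 117 FPKM in siTEAD4. ATP5MJ, the 6.8 kDa proteolipid (chromosome 14, 103912288 to 103928269, minus strand), stood at 62.1, 79.6 and 68.3 FPKM in Control and at 81.8, 92.5 and 83.1 FPKM in siTEAD4. For both the groups were separate, but by less than the range within Control. The log2 fold changes were 0.39 ± 0.132 and 0.29 ± 0.104 (SE, limma adjusted p = 0.039 and 0.0459), and after rescaling to one median the adjusted p was 0.108 and 0.152.

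The catalytic head of complex V had no call. ATP5F1A, its alpha subunit, stood at 180, 183 and 184 FPKM in Control and at 187, 181 and 184 FPKM in siTEAD4, with a 95% interval of the log2 fold change of -0.15 to 0.18. ATP5F1B, the catalytic beta subunit and the most abundant of complex V, stood at 280, 306 and 296 FPKM in Control and at 320, 328 and 321 FPKM in siTEAD4. Its groups did not overlap, and the log2 fold change of 0.14 was not called (limma adjusted p = 0.17). ATP5F1C, the gamma subunit of the central stalk, had 189 ± 13.8 FPKM with Control and 172 ± 7.45 FPKM with siTEAD4 (SD, n = 3), a log2 fold change of -0.13 (limma adjusted p = 0.233). ATP5MC1, ATP5MC2 and ATP5MC3 encode the same mature c-ring protein, and had log2 fold changes of 0.03, -0.01 and 0.27, none called. By part of the enzyme, the median log2 fold change was 0.02 over 5 head and central stalk genes, 0.16 over 4 peripheral stalk genes and 0.21 over 5 other membrane genes. Without Control 1 these were -0.039, 0.089 and 0.065, and without siTEAD4 1 0.002, 0.166 and 0.1, so their order depended on single libraries. ATP5MF, second in abundance at 291 FPKM, had 0.01.

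ATP5IF1, the inhibitor that blocks ATP hydrolysis by complex V, was the lowest by log2 fold change. It stood at 68.2, 95.4 and 75.6 FPKM in Control and at 62.4, 72.6 and 68.8 FPKM in siTEAD4. The groups overlapped, and the log2 fold change of -0.22 was not called (limma adjusted p = 0.184). Without Control 1 it was the 1 member called lower (adjusted p = 0.0369). The 3 remaining name matches, ATP5MF-PTCD1, ATP5MGL and UQCRHL, had means of 0.26 to 0.47 FPKM over all libraries. With COX6B2, COX7A1, COX7B2 and COX8C they were the 7 members not tested.

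Control 2 and Control 1 stood at opposite ends for these genes. Control 2 was the highest of the 3 Control libraries in 64 of 78 members and the highest of all 6 in 38 (48.7%, against 25.1% of all genes). Control 1 was the lowest of all 6 in 62 (79.5%, against 25.4%). The median log2 deviation of the members from their own mean was -0.25 in Control 1, 0.13 in Control 2, -0.04 in Control 3 and 0.05, 0.08 and 0.05 in siTEAD4 1 to 3. The summed FPKM of all 85 members was 6623, 8729 and 7564 in Control and 8148, 8397 and 8077 in siTEAD4. Control 2 thus exceeded every siTEAD4 library, and Control 1 lay below all. The total FPKM of the libraries differed too, with 432777, 496443 and 456616 in Control and 480237, 486298 and 477427 in siTEAD4. As a share of these totals the members made up 1.53%, 1.76% and 1.66% in Control and 1.70%, 1.73% and 1.69% in siTEAD4. The order of Control 1 and Control 2 was the same by share, with a smaller spread. The SD of log2(FPKM + 1) was larger in Control than in siTEAD4 for 71 of 78 members (91.0%, against 84.8% of all genes). The median coefficient of variation of FPKM was 14.6% in Control and 4.20% in siTEAD4, beside 12.7% and 4.72% for all tested genes.

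**Figure D3:**
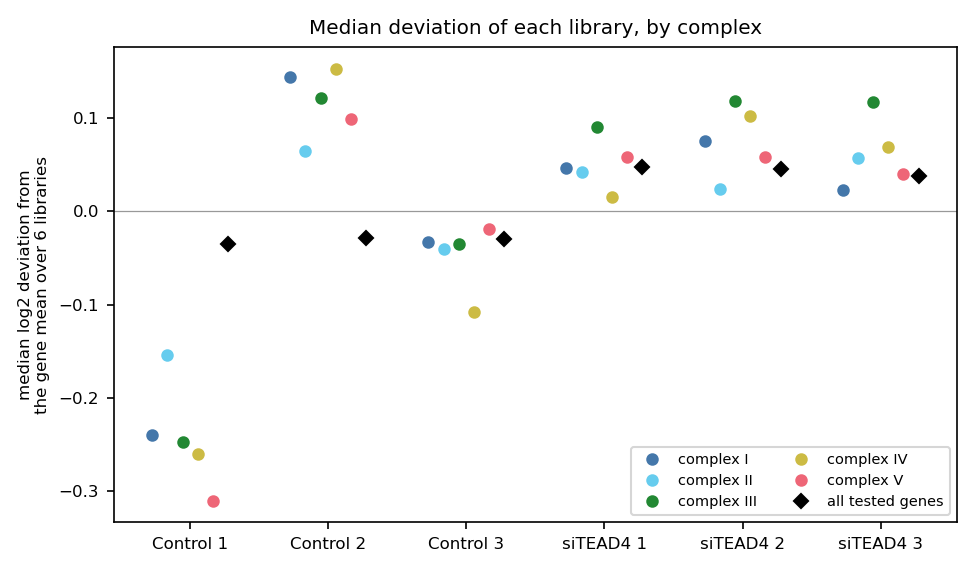
Median log2 deviation of the tested members from each gene's mean over 6 libraries (y axis), by library and complex, with all tested genes as black diamonds. Members of every complex are low in Control 1 and high in Control 2, where the diamonds of all genes are close to those of Control 3, and the siTEAD4 libraries lie close together.

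Without Control 2, 37 of the 78 members were called higher (47.4%) and 0 lower, by limma on the other 5 libraries, against 35.4% and 23.3% of all genes. By unadjusted p under 0.05 there were 43 higher and 0 lower. The calls came from complex I with 14 of 36, complex II with 2 of 4, complex III with 4 of 8, complex IV with 9 of 11 and complex V with 7 of 17, and COX7A2L. In complex I, all 14 were accessory subunits and 0 of 7 core subunits were called. For COX4I1 the log2 fold change was then 0.21 (adjusted p = 0.0318), COX5A 0.31 (0.00512), COX5B 0.28 (0.00864), NDUFA4 0.41 (0.0201) and COX7A2 0.42 (0.00272). The median over the members was 0.21, while that of all genes was 0.09. With Control 2 left out and the other libraries rescaled to one median, 23 were called higher (29.5%) and 0 lower (1 lower at unadjusted p under 0.05), against 29.2% and 25.9% of all genes, and complex IV still had 6 of 11. Without Control 1, in contrast, 3 were called higher and 1 lower, against 30.1% and 21.3%. The 5 calls beside COX7A2L and NDUFV3 also depended on single libraries of either group: NDUFA1 was called in 11 of the 16 alternatives, NDUFA8, UQCRH and ATP5MK in 8, and ATP5MJ in 6, with adjusted p of up to 0.122, 0.149, 0.145, 0.143 and 0.176.

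**Figure D4:**
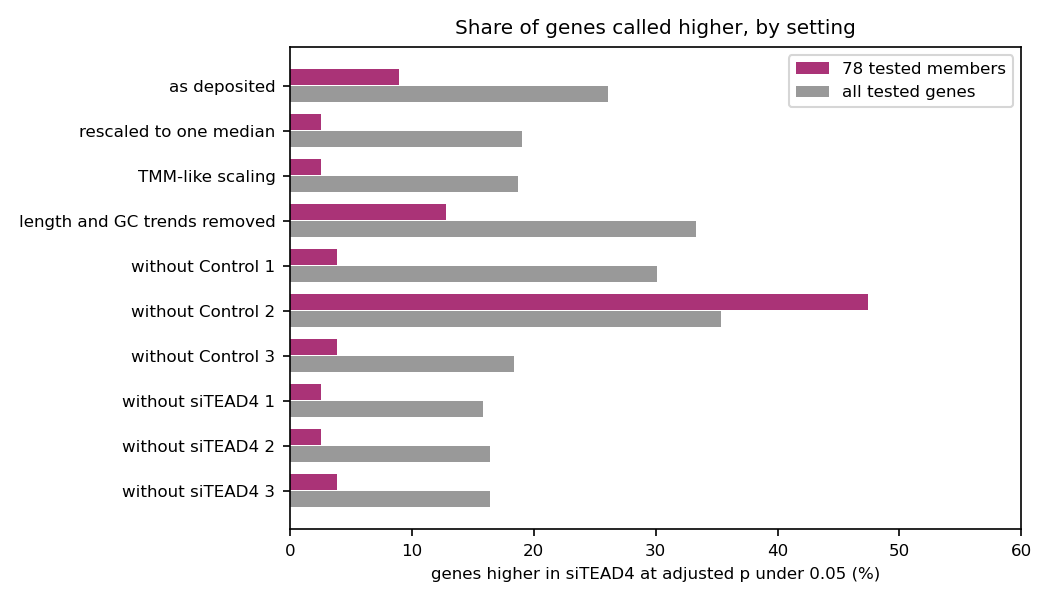
Share of genes called higher in siTEAD4 at an adjusted p under 0.05 (x axis, %), for the 78 tested members (purple) and for all tested genes (grey), as deposited and under 9 alternatives. The members' share is below that of all genes in each setting drawn except without Control 2, where it is 47.4% against 35.4%.

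The difference of Control 2 from the mean of Control 1 and Control 3 went with properties of the transcripts. That mean includes Control 1, where the members' median deviation was -0.25, against 0.13 in Control 2. The difference thus holds the deviations of both libraries, and the relation was not computed for Control 1 by itself. The members are short, with a median longest transcript of 1510.5 nucleotides against 3700 for all tested genes, at a similar GC content (47.7% and 47.9%). Control 2 minus the mean of Control 1 and Control 3 had a median of 0.28 on the log2 scale and was positive in 73 of 78 members, while its median over all genes was -0.005. Across the 78 members this difference had a Pearson r of 0.49 with GC content and of -0.493 with log2 transcript length (Spearman 0.459 and -0.406), and across all 11357 genes with a length 0.65 and -0.523. These correlations are across genes that share the same libraries and are descriptions only. The siTEAD4 minus Control difference had an r of -0.213 with GC content over the members, and -0.0112 without Control 2. With each library's trends in length and GC content removed, 10 members were called higher and 5 lower (ATP5F1C, ATP5IF1, NDUFB6, NDUFS4 and NDUFV2), against 33.3% and 25% of all genes. This fit also sets each library to the same mean log2 level, so it cannot separate length and GC content from scaling. The part that length and GC content have in the group difference was not tested beyond it.

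**Figure D5:**
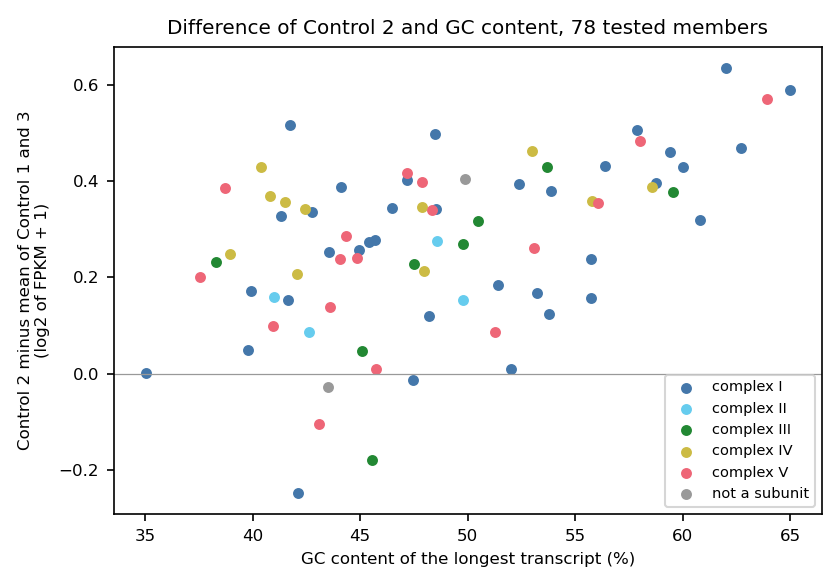
Control 2 minus the mean of Control 1 and Control 3 (y axis, log2 of FPKM + 1) against the GC content of the longest transcript (x axis, %) for the 78 tested members, coloured by complex. In 73 of 78 members the difference is above 0, and it is larger at higher GC content (Pearson r 0.49 across genes).

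The genes that build and regulate the complexes lie outside the naming rule. These lists were written with earlier results of these data known. Counts as deposited are read against the 26.1% called higher and 18.8% called lower over all genes. Of all genes, 30.1% were called higher without Control 1, 35.4% without Control 2 and 18.4% without Control 3. The share was 15.8% without siTEAD4 1 and 16.4% without siTEAD4 2 or siTEAD4 3. Called lower were 21.3% without Control 1 and 23.3% without Control 2. Of assembly factors, 5 of 16 for complex I rose, 4 of 10 for complexes II and III, 10 of 21 for complex IV and 2 of 4 for complex V, and 0 fell. After rescaling to one median the numbers were 2, 3, 6 and 1, beside 19% of all genes. Leaving out 1 library gave 2 to 9, 3 to 5, 6 to 10 and 1 to 2; the 9 came without Control 2 and the 2 without siTEAD4 1 or siTEAD4 3, the 6 without Control 3, siTEAD4 1 or siTEAD4 2, and 1 complex I factor was called lower without Control 1. The complex I factor NDUFAF4 stood at 4.90 ± 0.292 FPKM with Control and 9.69 ± 0.426 FPKM with siTEAD4 (SD, n = 3; limma adjusted p = 0.000108), and the complex IV factor PET117 at 2.67 ± 0.615 and 7.32 ± 1.10 FPKM (0.000333). The others with the largest changes were NDUFAF2, NDUFAF1, UQCC3, BCS1L, UQCC1, COA7, LRPPRC, TMEM70 and FMC1, with log2 fold changes of 0.37 to 0.74. The calls of NDUFAF1 and FMC1 ended in 4 and 9 of 16 alternatives, with adjusted p of up to 0.0981 and 0.267. CYCS, cytochrome c, rose from 40.1 ± 2.26 to 60.1 ± 3.59 FPKM (limma adjusted p = 0.000706), the 1 call among 5 tested subunits and paralogs outside the naming rule.

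Of 10 tested regulators of respiratory genes, 7 rose and 0 fell, and 5 were called higher after rescaling. With 1 library left out, 3 (without siTEAD4 1) to 7 (without Control 2) were called higher. PPRC1, a coactivator of the PGC-1 family, stood at 9.51 ± 0.313 FPKM with Control and 15.6 ± 0.179 FPKM with siTEAD4 (SD, n = 3; limma adjusted p = 0.000252). TFAM and TFB2M, which start transcription of mitochondrial DNA, had log2 fold changes of 0.65 and 0.56 (limma adjusted p = 0.0337 and 0.00202). The TFAM call ended in 5 of 16 alternatives with an adjusted p of up to 0.0909. TFAM stood at 25.4, 13.4 and 25.3 FPKM in Control 1 to 3, and without Control 2 its log2 fold change was 0.35. Among the factors whose letters were searched in the promoters, GABPB1 rose (0.51, limma adjusted p = 0.00198), as did YY1 (0.28, 0.0197, up to 0.0828 over the alternatives). NRF1 and GABPA were not called (0.11 and 0.20, limma adjusted p = 0.329 and 0.234). PPARGC1A had at most 0.09 FPKM in any library. PPARGC1B had 0.21 to 0.31 FPKM in Control and 0.75 to 0.90 FPKM in siTEAD4, and both were too low to be tested.

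Other mitochondrial gene groups gave these counts. Of 18 protein import genes, 12 rose and 0 fell (8 and 0 after rescaling; 7 without Control 3 or siTEAD4 1 to 16 without Control 2), led by TIMM8A, TIMM17A and TIMM9 with log2 fold changes of 0.80, 0.72 and 0.51. Of 78 mitochondrial ribosomal protein genes, 23 rose and 0 fell (14 and 0 after rescaling; 9 without siTEAD4 1 to 48 without Control 2, and 4 called lower without Control 1), led by MRPL15, MRPS35 and MRPS6 with 0.73, 0.61 and 0.59. Of 13 tricarboxylic acid cycle genes, 3 rose and 0 fell as deposited. After rescaling 1 was called higher and 1 lower, without Control 2 5 and 1, without Control 1 2 and 1, and without any 1 siTEAD4 library 1 and 0. IDH3A, a subunit of isocitrate dehydrogenase, stood at 13.8 ± 0.970 FPKM with Control and 26.3 ± 0.306 FPKM with siTEAD4 (SD, n = 3; limma adjusted p = 6.84e-05), and DLST and FH had 0.28 and 0.23, with adjusted p of up to 0.0747 and 0.246 over the alternatives. Cytosolic ribosomal protein genes, matched by symbol, had 3 of 82 called higher (RPL7L1, RPL5 and RPL4) and 62 of 82 without Control 2. Without Control 1 they had 2 called higher and 1 lower, and without any other library 1 higher. The calls of RPL5 and RPL4 ended in 7 and 9 of 16 alternatives. RPL7L1 was called in all 16, but it is an RPL7-like gene that entered by the symbol match.

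Many members have copies that could share reads. In GENCODE 29, 45 of the 85 have at least 1 pseudogene named after them, 159 in all, and 40 overlap another protein-coding gene. COX6C has 17 such pseudogenes and NDUFA5 and NDUFB4 have 12 each. ATP5PF overlaps GABPA on the opposite strand, and no source used here says whether counting used strand. COX7A2L and NDUFV3 overlap no other coding gene. How reads shared with copies were counted is not given, so the levels of members with copies are less certain than the others.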

How the data were processed

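Each library came as 1 table from the authors, with a value per gene symbol in FPKM per the file headers; Control 1's values carry no unit and were taken as FPKM from their range and decimals. Per the submitters' processing notes the build was GRCh38. No source used here names the aligner, counter, annotation or use of strand. FPKM values are not counts, so no count test was run.

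Genes reaching 1 FPKM in 3 or more of the 6 libraries (11411) were analysed as log2(FPKM + 1) in limma 3.58.1 (R 4.3.3; eBayes with a mean-variance trend, group as the only term). Benjamini-Hochberg adjustment covered all tested genes, and genes under 0.05 were called. The pseudocount of 1 understates the fold change of low genes. Levels are mean ± SD of FPKM. The members and lists were chosen with earlier results of these data known. Named were, per complex, the 4 called members with the largest change among those with a mean of at least 5 FPKM, the 2 most abundant, a fixed set of core subunits and isoforms, up to 3 called genes per list, and TEAD4; other genes named were chosen after their values were seen. The rule also picks 1 member that is counted in the totals but not reported singly here.

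The 16 alternatives comprised an unweighted TMM-like scaling with 30% trimmed, rescaling to one median, no filter, a filter of 5 FPKM, 2 other pseudocounts (0.1 and 5), a fit with no trend, a replicate block, removal of length and GC trends (natural splines, 5 degrees of freedom), leaving out each library, and leaving out Control 2 with rescaling, the last chosen after seeing the data. Coordinates, lengths and GC content came from GENCODE 29 (17879 of 18126 symbols matched) and promoters from RefSeq. No pair of libraries had equal values in more than 0.684% of tested genes. The fit was tested on simulated data.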

Additional observations from a re-analysis of the deposited data

How the results depend on the processing

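COX7A2L and NDUFV3 were called higher in all 16 alternatives. The number of members called higher, 7 as deposited, was 2 after rescaling to one median, 2 with TMM-like scaling and 3 with no filter. By complex, both scalings gave 1 in complex I, 0 in complex III and 0 in complex V, no filter gave 0 in complexes III and V, and limma without the trend gave 1 in complex V. With length and GC trends removed, 5 members were called lower, and complex I had 7 calls in either direction, complex III 3, and the genes that are not subunits 2. Without a filter the median log2 fold change of those genes was -0.014, over more genes than as deposited. Leaving out 1 library at a time gave 2 to 37 members called higher, 0 to 1 called lower, and 1801 to 4034 genes called higher in all. Calls then ranged from 1 to 14 in complex I, 0 to 2 in II, 0 to 4 in III, 0 to 9 in IV, 0 to 7 in V and 1 to 2 among genes that are not subunits, and the median of complex IV from 0.061 to 0.27. The highest of these numbers came without Control 2, except the calls lower and those of genes that are not subunits, which came without Control 1. Leaving out Control 2 and rescaling gave 23 members called higher, 11 in complex I, 2 in III and 6 in IV. Counting NDUFA4 in complex I left the call counts of complexes I and IV the same. Where not stated, the cause was not tested.

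Signs changed among uncalled genes near 0. Log2 fold changes after rescaling to one median and with TMM-like scaling, in this order, were -0.059 and -0.063 for ATP5F1A, -0.043 and -0.047 for ATP5MC1, -0.066 and -0.071 for ATP5MF, -0.021 and -0.025 for CYC1, -0.045 and -0.049 for NDUFS3, -0.066 and -0.07 for NDUFV2, -0.037 and -0.041 for SDHA, -0.007 and -0.011 for SDHB, and -0.051 and -0.056 for SDHC. With length and GC trends removed they were -0.049 for ATP5MC1, -0.032 for ATP5MF, -0.14 for COX6A1, -0.004 for NDUFB9, -0.016 for NDUFS5, -0.21 for NDUFV2 (called, adjusted p = 0.049, limma), -0.053 for SDHB, -0.033 for SDHD and -0.067 for TFB1M. Without Control 2 and rescaled they were -0.037 for ATP5F1A, 0.048 for ATP5MC2, 0.024 for COX8A, -0.002 for GABPA, -0.005 for NDUFS1, 0.02 for NDUFS8 and -0.005 for SDHC. Over the fits that leave out 1 library they ranged from -0.13 to 0.16 for ATP5MC1, -0.081 to 0.10 for ATP5MC2, -0.145 to 0.17 for ATP5MF, -0.006 to 0.21 for COX4I1, -0.003 to 0.28 for COX5B, -0.009 to 0.22 for COX6A1, -0.047 to 0.20 for COX6B1, -0.21 to 0.079 for COX8A, -0.086 to 0.17 for CYC1, -0.049 to 0.18 for NDUFB9, -0.077 to 0.11 for NDUFS3, -0.24 to 0.006 for NDUFS7, -0.27 to 0.075 for NDUFS8, -0.086 to 0.12 for NDUFV2, -0.033 to 0.088 for SDHA and -0.059 to 0.074 for SDHC.

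The labels do not say whether the replicate numbers pair the libraries. Deviations of same-numbered libraries from their group means correlated at -0.163, 0.272 and 0.0896 over 11411 genes. Control 1 correlated best with siTEAD4 3 at 0.39, while Control 2 and Control 3 correlated best with the siTEAD4 library of their own number. Deviations from a mean of 3 libraries depend on each other, so these values cannot decide whether the libraries were paired. With the number as a replicate block, 9 members were called higher and 0 lower, complex IV gained 1 call (COX7A2), and 3015 and 2165 of all genes were called higher and lower.

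With 3 libraries a group, 95% intervals of single members were often wider than their log2 fold changes, and FPKM gives no depth from which to set a counting error.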
